A study of Mus musculus with 41 samples.

Results

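The comparison sets the Esrrb-depleted mouse embryonic stem cell line KO3 against a second Esrrb-depleted line, KO2, after 1 day in AloXR medium. It takes the table columns of KO3 (4 libraries) and KO2 (4 libraries) at that time, which are 8 of the 41 libraries of the series. Both lines, and the WT line that still carries Esrrb, are mouse E14 cells. Before AloXR, cells of all 3 lines were grown in 2iL, an N2B27-based medium with the GSK3 inhibitor CHIR99021, the MEK inhibitor PD0325901 and the cytokine LIF, and then spent 1 day in N2B27 on fibronectin. AloXR adds 3 compounds to N2B27. These are activin A, XAV, which inhibits tankyrase and so lowers Wnt signalling, and BMS439, an inverse agonist of retinoic acid receptors. The same lines were also sampled in 2iL (3 libraries each) and after 3 and 5 days of AloXR (2 libraries of KO3, 4 of KO2 and 4 of WT at each time). RNA was measured by QuantSeq, which reads tags near the 3′ end of polyadenylated RNA, as counts scaled to the assigned reads of each library (CPM). The labels give neither the deleted part of Esrrb nor whether each line is a single clone, and they do not say that the libraries of a group came from separate cultures, so p-values measure only the spread between libraries, which may be technical.

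Esrrb is an orphan nuclear receptor that, with Nr5a2, Klf, Tfcp2l1 and Nanog factors, keeps embryonic stem cells in the naive state that resembles the epiblast before implantation. On leaving 2iL, cells silence this network, raise Otx2, Pou3f1, Fgf5 and the DNA methyltransferases, and reach the formative state, from which the germ layers and germ cells can be made. WT values are given beside the lines where they help to place a level.

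The 8 libraries held 3668018 to 4667588 assigned reads, so that 3 reads correspond to 0.643 to 0.818 CPM. The stem cell and epiblast markers Sox2 and Dnmt3b were expressed in all 8, Sox2 at 51.5 CPM or more and Dnmt3b at 1188 CPM or more. Pou5f1 was lower than both, with its values given below. Within each line, libraries 1 and 2 differed least, with a chi-square per gene of 1.57 in KO3 and 1.93 in KO2. The other pairs gave 2.41 to 8.93. Libraries 3 and 4 gave 2.41 in KO3 and 7.66 in KO2. In KO2, library 3 differed less from libraries 1 and 2 (4.89 and 5.11) than from library 4. Libraries 1 and 2 detected 18421 to 18744 genes and libraries 3 and 4 detected 19295 to 19653. The labels do not name these pairs as batches. Many counts below are also given within libraries 1 and 2 and within libraries 3 and 4 of both lines. On the first principal component, which held 59% of the variance, the KO3 libraries lay at 20.6 to 27 and the KO2 libraries at -35.9 to -18.2. KO2 library 4 lay furthest from the rest on the second component, at -22.8 against -9.5 to 17.3.

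The lines differed in many genes. A gene was called at an adjusted p under 0.05 (limma, Benjamini-Hochberg) and at least a 1.5-fold difference (0.58 on the log2(CPM + 1) scale, on which all differences are given with their standard error). Of 16967 genes tested, 2542 (15%) were called, 1390 of them higher in KO3 (8.19%) and 1152 lower (6.79%). The median difference over all genes was 0.02. The libraries of the lines did not overlap for 4591 genes (27.1%), including 1159 of the genes called higher (83.4%) and 941 of those called lower (81.7%). Of the genes called higher, the WT mean lay above both lines for 167 (12%), between them for 907 (65.3%) and below both for 316 (22.7%). Of those called lower, it lay above both lines for 179 (15.5%), between them for 708 (61.5%) and below both for 265 (23%). Called genes are those with a gap between the lines, which by itself favours a WT mean between them. The shares over all genes were not computed.

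**Figure D1:**
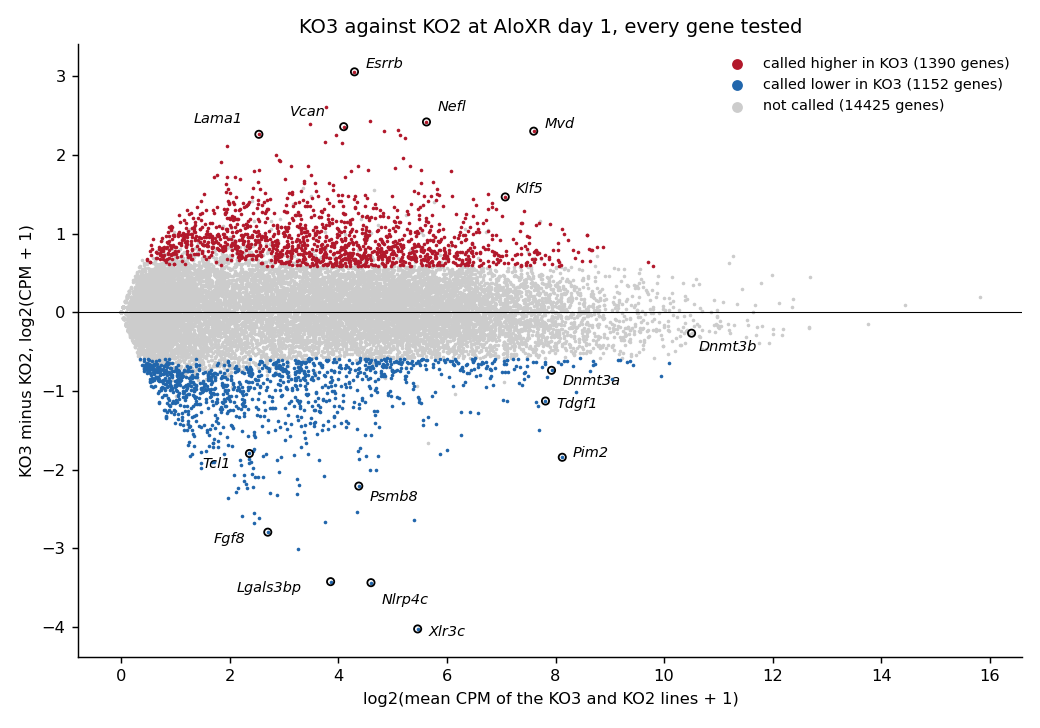
Difference between KO3 and KO2 at AloXR day 1 (y axis, log2(CPM + 1) scale) against the mean level of both lines (x axis, log2 scale) for each gene tested, with genes called higher in KO3 in red, called lower in blue and not called in grey. Esrrb stands at the top with 3.06 and Xlr3c at the bottom with -4.02.

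Esrrb itself had the largest rise of all genes tested. Esrrb (ENSMUSG00000021255, chromosome 12, 86361117 to 86521628, GRCm38) had 41.4, 38.5, 26.1 and 29.4 CPM in KO3, against 5.52, 4.83, 1.86 and 1.64 CPM in KO2. WT libraries had 17.3, 13.1, 17.7 and 12.1 CPM. Every KO3 library lay above every WT library, and every KO2 library lay below them. KO3 exceeded KO2 by 3.06 ± 0.27 (adjusted p = 1.51e-11), and the exact two-sided permutation test over the 8 libraries gave p = 0.0286, the smallest it can give. In 2iL the order was different, with 103, 136 and 166 CPM in KO3, 52, 55.2 and 56.7 CPM in KO2 and 434, 381 and 309 CPM in WT, so that both lines lay below WT there. At day 1 the tags of KO3 do not show the depletion that the label gives. Tags at the 3′ end may lie outside the deleted part and do not measure functional protein. Its relative Esrra, which acts on mitochondrial genes, had 6.02 ± 0.57 CPM in KO3 and 6.48 ± 0.91 CPM in KO2 (SD, n = 4 each) and was not called (-0.09 ± 0.20, adjusted p = 0.8). Esrrg did not pass the filter on low values.

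Among 11 tested nuclear receptors related to Esrrb, 3 were called higher (27.3%, against 8.19% of all genes) and none lower (median 0.17). Within libraries 1 and 2 the list gave 1 higher, and within libraries 3 and 4 it gave 4. The 3 were Esrrb itself, Nr5a2, an orphan receptor that activates Pou5f1, and Nr0b1, a corepressor that binds other nuclear receptors. Nr5a2 and Nr0b1 were not called within libraries 1 and 2 (adjusted p = 0.0868 and 0.37). Nr5a2 had 9.79, 7.66, 7.5 and 4.74 CPM in KO3, against 4.77, 2.53, 0.233 and 0.818 CPM in KO2. The lines touched at KO3 library 4 and KO2 library 1 (difference 1.66 ± 0.34, adjusted p = 2.70e-04). Nr0b1 was low in both lines, with 1.09 to 4.07 CPM in KO3 and 0 to 0.92 CPM in KO2, and both lay under WT at 6.39 to 14 CPM (difference between the lines 1.26 ± 0.30, adjusted p = 0.00139).

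Several other factors of the naive network were higher in KO3. Of 26 tested naive pluripotency genes, 9 were called higher (34.6%, against 8.19% of all genes) and 2 lower (7.69%, against 6.79%), with a median of 0.45. Klf5, a Krüppel-like factor that acts downstream of LIF, had 208, 200, 175 and 202 CPM in KO3, against 77.3, 82.3, 71 and 53.7 CPM in KO2. The WT libraries, at 99.2 to 154 CPM, fell in the gap between the lines, which was 1.47 ± 0.15 (adjusted p = 4.79e-10). Tbx3, a T-box factor of naive cells that is also expressed in primitive endoderm, had 3.92, 3.72, 5.57 and 5.65 CPM in KO3, against 1.25, 0.69, 1.17 and 1.64 CPM in KO2 (1.39 ± 0.29, adjusted p = 2.92e-04). Tfcp2l1, a target of STAT3, rose by 0.62 ± 0.21 (adjusted p = 0.0274), a call lost when KO2 library 4 or any of KO3 libraries 1, 3 and 4 was left out (adjusted p = 0.0508 to 0.147). The homeobox gene Gbx2 rose by 1.03 ± 0.32 (adjusted p = 0.0162), a call that was lost without KO2 library 2 or 4 or KO3 library 1 or 2 (adjusted p = 0.0517 to 0.128).

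The members called lower were Klf2 and Tcl1. Klf2, a Krüppel-like factor sustained by MEK inhibition, had 10, 9.4, 8.36 and 7.68 CPM in KO3, against 18.6, 17, 21.4 and 17.7 CPM in KO2 (-1.0 ± 0.23, adjusted p = 8.23e-04). Tcl1, a coactivator of AKT signalling and in stem cells a gene downstream of Esrrb, had 1.09, 1.09, 0.857 and 2.26 CPM in KO3, against 6.53, 6.21, 6.06 and 9 CPM in KO2 (-1.79 ± 0.26, adjusted p = 7.31e-07). Tcl1 was lower in KO3, the line with more Esrrb tags, and whether its level depends on Esrrb was not tested. Nanog was not called, at 27.1 to 32.3 CPM in KO3 and 30.8 to 40.1 CPM in KO2 (-0.22 ± 0.17, adjusted p = 0.389). Without KO2 library 4, 6 naive genes were called higher and 2 lower. Libraries 1 and 2 alone gave 4 higher and 1 lower, and libraries 3 and 4 alone gave 6 and 2.

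Most core pluripotency genes were not called. Of 13, 2 were higher (15.4%) and 1 lower (7.69%), with a median of 0.37. Without KO2 library 4 or KO3 library 1 or 2, 1 was higher. Within libraries 1 and 2, and within libraries 3 and 4, none was higher and 1 was lower. Pou5f1 had 11.2 to 16.5 CPM in KO3 and 8.38 to 12.8 CPM in KO2 (0.32 ± 0.19, adjusted p = 0.253), and Sox2 58.9 to 99.7 CPM in KO3 and 51.5 to 76.8 CPM in KO2 (0.43 ± 0.24, adjusted p = 0.205). Epcam, an epithelial adhesion protein of stem cells, had 350, 363, 312 and 335 CPM in KO3, against 207, 202, 162 and 172 CPM in KO2. KO3 was at the WT level of 330 to 389 CPM and KO2 below it (difference between the lines 0.88 ± 0.22, adjusted p = 0.00286). The Epcam call was lost within libraries 1 and 2 and within libraries 3 and 4 (adjusted p = 0.12 and 0.0524). Tdgf1, the Nodal co-receptor also called Cripto, had 130, 133, 150 and 150 CPM in KO3, against 324, 287, 309 and 311 CPM in KO2 (-1.13 ± 0.19, adjusted p = 3.28e-05).

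Formative genes moved in both directions. Of 25 tested formative genes, 3 were called higher (12%) and 5 lower (20%), with a median of -0.05. The transcription factors that mark the formative transition did not pass the test. Otx2 had 175 to 191 CPM in KO3 and 205 to 228 CPM in KO2 (-0.29 ± 0.20, adjusted p = 0.33), and Pou3f1 368 to 376 CPM in KO3 and 385 to 466 CPM in KO2 (-0.16 ± 0.18, adjusted p = 0.57). The growth factor gene Fgf5 had 72, 69.8, 58.1 and 55.1 CPM in KO3, against 92.9, 90.1, 82 and 77.7 CPM in KO2. Its difference of -0.43 ± 0.14 had an adjusted p of 0.0178 but stayed under 1.5-fold. For these 3 genes all KO3 libraries lay below all KO2 libraries. Such a lack of overlap, in either direction, held for 27.1% of all genes tested.

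The de novo DNA methyltransferase Dnmt3a was called lower, with 196, 184, 169 and 176 CPM in KO3, against 311, 309, 305 and 287 CPM in KO2 (-0.74 ± 0.11, adjusted p = 7.00e-07). WT had 626 to 674 CPM, so both lines were under WT and KO3 further. Dnmt3b, the other de novo enzyme, was not called (-0.27 ± 0.26, adjusted p = 0.518). Car14, a membrane carbonic anhydrase, had 1.74, 0.437, 1.28 and 1.35 CPM in KO3, against 6.28, 6.9, 7.22 and 9.81 CPM in KO2 (-1.98 ± 0.18, adjusted p = 2.11e-11). Pim2, a serine/threonine kinase on the X chromosome, had 121, 120, 116 and 125 CPM in KO3, against 412, 417, 470 and 442 CPM in KO2 (-1.84 ± 0.20, adjusted p = 2.81e-08). WT lay at 18 to 19.6 CPM for Car14, above both lines, and at 245 to 293 CPM for Pim2, between them.

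Primed epiblast genes gave no call higher and 2 lower of 14 (14.3%, median -0.03). Fgf8, an FGF ligand of the gastrulating epiblast, had 0.871, 0.219, 0 and 1.58 CPM in KO3, against 7.28, 6.9, 15.4 and 11.7 CPM in KO2 (-2.79 ± 0.36, adjusted p = 1.34e-07). WT, at 0.525 to 1.68 CPM, was at the KO3 level. The T-box gene T had 0 to 0.214 CPM in KO3 and 0 to 2.76 CPM in KO2, and its call (-1.05 ± 0.35, adjusted p = 0.0215) was lost without KO2 library 1 or 2 (adjusted p = 0.12 and 0.0939).

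**Figure D2:**
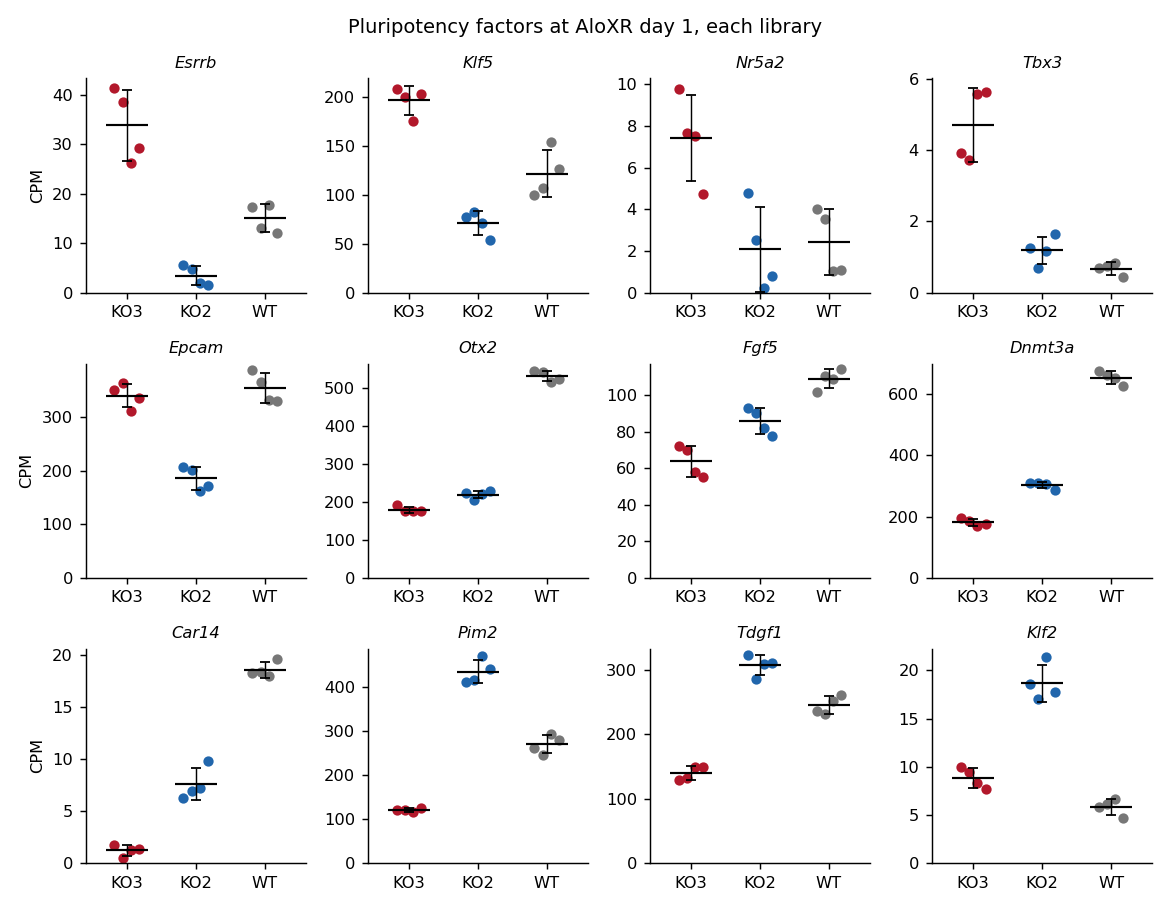
Level of 12 pluripotency genes in each library at AloXR day 1 (y axis, CPM, starting at 0), with the mean as a line and its SD as bars (n = 4 libraries per line, drawn in the order KO3, KO2 and WT). Esrrb, Klf5, Tbx3 and Epcam do not overlap between KO3 and KO2 and are higher in KO3. Dnmt3a, Car14, Pim2, Tdgf1 and Klf2 do not overlap and are lower, as are Otx2 and Fgf5, which were not called.

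Genes of sterol synthesis and uptake made up the list with the highest share of members called higher in KO3. Cells make cholesterol from acetyl-CoA through the mevalonate pathway, whose genes are activated together by SREBP2 when membrane sterol is low. Of 24 tested, 14 were called higher in KO3 (58.3%, against 8.19%) and none lower, with a median of 0.69. Mvd, which decarboxylates mevalonate diphosphate, had 271, 297, 331 and 385 CPM in KO3, against 52.7, 63.2, 67.3 and 73.6 CPM in KO2. WT, at 82.6 to 92.6 CPM, was near KO2, and the lines were far apart (2.30 ± 0.19, adjusted p = 1.51e-11). Fdps, which makes farnesyl diphosphate, had 49.4, 61, 69.4 and 81.3 CPM in KO3, against 26.4, 25.3, 35.2 and 30.8 CPM in KO2 (1.11 ± 0.22, adjusted p = 1.86e-04).

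A later step followed the same direction. Hsd17b7, a sterol 3-ketoreductase, had 68.1, 66.7, 70.9 and 66.8 CPM in KO3, against 20.3, 26.4, 24.7 and 14.7 CPM in KO2 (1.65 ± 0.20, adjusted p = 5.90e-08). Hmgcs1, which makes HMG-CoA at the start of the pathway, did not follow. It had 518, 521, 337 and 340 CPM in KO3 and 565, 567, 504 and 464 CPM in KO2, and was not called (-0.32 ± 0.13, adjusted p = 0.0804). Mvd lies on chromosome 8, which was higher as a whole in KO3, and with each chromosome centred 13 sterol genes were still called higher. Libraries 1 and 2 alone, and libraries 3 and 4 alone, each gave 12 higher and none lower.

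Markers of primitive endoderm, the extraembryonic lineage that lays down a basement membrane, were also higher in KO3. Of 20 tested, 10 were called higher (50%, against 8.19%) and none lower, with a median of 0.75. Gata6, the GATA factor that specifies the lineage, had 2.83, 2.41, 8.57 and 8.58 CPM in KO3, against 1.25, 0.69, 1.63 and 0 CPM in KO2 (1.73 ± 0.35, adjusted p = 2.07e-04). KO3 libraries 3 and 4 were the high ones, and the lines did not overlap. Lama1, the laminin chain of the early embryonic basement membrane, had 11.8, 6.34, 5.57 and 10.8 CPM in KO3, against 1, 1.61, 0.699 and 0.545 CPM in KO2 (2.26 ± 0.30, adjusted p = 1.75e-07). Col4a1, a collagen IV chain encoded on chromosome 8, had 63.3, 58.8, 74.6 and 70.2 CPM in KO3, against 27.1, 28.5, 25.4 and 20.4 CPM in KO2 (1.37 ± 0.17, adjusted p = 2.98e-08).

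Sox17, an endoderm transcription factor, was near the detection limit, with 1.09 to 2.26 CPM in KO3 and 0 to 0.818 CPM in KO2 (0.98 ± 0.24, adjusted p = 0.00205). Dab2, an endocytic adaptor of primitive endoderm, had 4.79, 5.69, 31.7 and 30.3 CPM in KO3 and 5.02, 3.45, 8.85 and 5.72 CPM in KO2. Its high values were those of KO3 libraries 3 and 4, and its call (1.12 ± 0.39, adjusted p = 0.031) was lost without either of these (adjusted p = 0.183 and 0.176), as without KO2 library 1, 2 or 4 (adjusted p = 0.0581 to 0.105). Libraries 1 and 2 alone gave 6 higher and libraries 3 and 4 alone gave 12 higher, both with none lower. The summed level of the 22 listed markers, none of them at 0 in all 8 libraries, was 1040 to 1100 CPM in KO3, 601 to 790 CPM in KO2 and 404 to 432 CPM in WT. In such bulk RNA, more cells of a type and more RNA per cell cannot be told apart.

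Basement membrane and matrix genes, which share Lama1, Col4a1 and others with that list, gave 8 calls higher of 18 (44.4%) and 2 lower (11.1%, median 0.33). Hspg2, the heparan sulfate proteoglycan perlecan, had 24.8, 23.4, 18.2 and 26.9 CPM in KO3, against 7.78, 8.05, 12.8 and 8.45 CPM in KO2 (1.26 ± 0.23, adjusted p = 7.36e-05). Vcan, the matrix proteoglycan versican, which is outside the list and among the 12 largest rises, had 35, 32.6, 22.3 and 20.8 CPM in KO3, against 6.03, 4.14, 5.12 and 3 CPM in KO2 (2.36 ± 0.21, adjusted p = 2.11e-11). WT lay between the lines for Vcan, at 9.9 to 16.5 CPM. Trophoblast genes gave 5 calls higher of 24 (20.8%) and 2 lower (8.33%, median 0.10), and their summed level was 760 to 1180 CPM in KO3, 790 to 835 CPM in KO2 and 170 to 217 CPM in WT. Without KO2 library 4, 3 were called higher, and without KO2 library 1 or KO3 library 2 none was called lower. Those called higher included Tead4 (1.02 ± 0.26, adjusted p = 0.0033), a TEAD factor of the trophectoderm, and Cited2 (0.98 ± 0.16, adjusted p = 8.11e-06), a CBP/p300 partner.

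Genes that respond to ERK signalling, which the MEK inhibitor of 2iL blocks, were higher in KO3 in 7 of 20 cases (35%, against 8.19%) and lower in 1 (5%), with a median of 0.67. Spry4, a feedback inhibitor of the pathway, had 18.3, 17.1, 13.1 and 19 CPM in KO3, against 6.28, 5.75, 3.49 and 5.18 CPM in KO2 (1.54 ± 0.28, adjusted p = 4.92e-05). Myc, the growth-promoting transcription factor, had 16.3, 16.8, 10.7 and 10.8 CPM in KO3, against 4.27, 7.13, 3.73 and 1.91 CPM in KO2 (1.55 ± 0.43, adjusted p = 0.00788). Fosl1, an AP-1 subunit, had 4.35 to 6.78 CPM in KO3 and 1.4 to 2.26 CPM in KO2 (1.34 ± 0.32, adjusted p = 0.00172). None of the 3 overlapped between the lines. Myc was not called within libraries 1 and 2 or within libraries 3 and 4 (adjusted p = 0.153 and 0.0783). Fosl1 was not called within libraries 1 and 2 (adjusted p = 0.148). The count was 2 in libraries 1 and 2 alone and 5 in libraries 3 and 4 alone.

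The LIF and STAT3 list, which shares Klf5 and other naive genes, gave 6 of 15 higher (40%) and none lower (median 0.46). Without KO2 library 4, and within libraries 1 and 2, it gave 3, and within libraries 3 and 4 it gave 2. Junb, an AP-1 subunit on chromosome 8, had 18.7, 21.4, 19.7 and 21.9 CPM in KO3, against 8.54, 8.05, 11.6 and 11.7 CPM in KO2 (0.98 ± 0.24, adjusted p = 0.00217). Immediate early and heat shock genes gave 7 of 17 higher (41.2%) and 1 lower (5.88%, median 0.75), among them Jund, also an AP-1 subunit on chromosome 8 (1.08 ± 0.17, adjusted p = 5.98e-06). Within libraries 1 and 2, and within libraries 3 and 4, that list gave 4 higher each and none lower. Wnt response genes gave 1 higher (5.56%) and 3 lower (16.7%) of 18, Nodal and activin genes none higher and 2 lower (12.5%) of 16, BMP genes 3 higher (20%) of 15 and retinoic acid genes 1 in each direction (6.25%) of 16. Without KO2 library 4 or KO3 library 1, 1 BMP gene was called higher, and within libraries 1 and 2, or 3 and 4, none. Without KO2 library 1 or 2, 1 Wnt gene was called lower. For these 4 lists the medians lay between -0.19 and 0.21.

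Genes of the germline that DNA methylation silences were lower in KO3. These genes encode proteins of meiosis and of sperm metabolism, and CpG methylation of their promoters keeps them off in other cells. Many carry an E-box (CACGTG) that the repressor PRC1.6 reads through the factors MGA and MAX. Of 20 tested, none was called higher and 8 lower (40%, against 6.79%), with a median of -0.41. In the RefSeq promoter table (GRCm38.p6, 250 bases before to 50 after each start, any listed start), 18 of the 20 had a promoter and 10 of these held CACGTG (55.6%). Of the 11572 tested genes with a promoter in that table, 11.5% held it. Of the 10 members with the motif, 4 were called lower, as were 4 of the 8 without it. The motif reads the same on both strands. The 4 called promoters that hold it are shown 5′ to 3′ on the gene's strand upstream of the start, with CACGTG in capitals, for Slc25a31 (chr3:40708728-40708833, plus strand), Sycp1 (chr3:102936139-102936244, minus strand), Mael (chr1:166238912-166238994, minus strand) and Sycp3 (chr10:88459494-88459586, plus strand).
Slc25a31: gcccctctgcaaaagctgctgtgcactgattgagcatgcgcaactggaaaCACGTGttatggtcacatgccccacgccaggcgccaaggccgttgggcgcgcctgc
Sycp1: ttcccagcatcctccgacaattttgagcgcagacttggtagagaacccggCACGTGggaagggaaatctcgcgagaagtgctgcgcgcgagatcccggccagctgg
Mael: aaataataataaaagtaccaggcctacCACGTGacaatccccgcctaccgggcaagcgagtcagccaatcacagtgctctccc
Sycp3: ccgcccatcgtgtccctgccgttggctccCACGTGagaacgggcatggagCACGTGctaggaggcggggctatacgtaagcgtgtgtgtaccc

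Slc25a31, the ADP/ATP carrier of sperm, had 8.27, 8.09, 9 and 6.78 CPM in KO3, against 34.6, 31.3, 33.1 and 28.4 CPM in KO2 (-1.86 ± 0.25, adjusted p = 2.48e-07). WT, at 8.22 to 10.3 CPM, was at the KO3 level. Sycp1, a protein of the synaptonemal complex, had 5.66, 8.31, 7.28 and 7.23 CPM in KO3, against 19.1, 16.3, 25.2 and 24.3 CPM in KO2 (-1.44 ± 0.26, adjusted p = 4.29e-05). Mael, a factor of transposon silencing by piRNAs, had 6.09, 6.12, 8.36 and 12.4 CPM in KO3, against 24.1, 18.9, 22.4 and 26.2 CPM in KO2 (-1.41 ± 0.28, adjusted p = 2.17e-04). For both, KO3 overlapped WT, which lay at 7.7 to 12.7 CPM for Sycp1 and 7.84 to 10.7 CPM for Mael. For Sycp1 only KO3 library 2, at 8.31 CPM, reached the WT range. Sycp3, whose printed promoter stretch holds the motif at 2 places, had 11.3, 8.53, 10.3 and 9.94 CPM in KO3 and 23.3, 22.8, 17.7 and 24 CPM in KO2 (-1.06 ± 0.29, adjusted p = 0.0073), with WT above both at 41.9 to 60.4 CPM. The testis tubulin Tuba3b was lower too (-1.44 ± 0.27, adjusted p = 6.78e-05), and the near-identical sequence of Tuba3a may share its reads. Libraries 1 and 2 alone gave 4 lower and libraries 3 and 4 alone gave 3 lower. Sycp3 was not called within libraries 1 and 2 or within libraries 3 and 4 (adjusted p = 0.0991 and 0.169). Mael and Tuba3b were not called within libraries 3 and 4 (adjusted p = 0.0583 and 0.0709).

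Genes of the two-cell-like state, a rare state of stem cells that resembles the early cleavage embryo, were lower in KO3 in 7 of 11 cases (63.6%, against 6.79%), with none higher and a median of -0.72. Those named next were near the detection limit, and the filter on low values passed 11 of 19 listed. The summed level of the 18 in the table, 5 of them at 0 in all 8 libraries, was 198 to 224 CPM in KO3, 251 to 284 CPM in KO2 and 222 to 254 CPM in WT. The ubiquitin protease gene Usp17lc had 0.678 to 2.36 CPM in KO3 and 3.49 to 6.54 CPM in KO2 (-1.24 ± 0.28, adjusted p = 7.44e-04). Prame had reads in 1 KO3 library, at 0.643 CPM, and 0.92 to 2.45 CPM in KO2 (-0.99 ± 0.20, adjusted p = 2.28e-04). The pseudogene Zscan4a had 0.435 to 1.5 CPM in KO3 and 1.86 to 3.54 CPM in KO2 (-0.98 ± 0.20, adjusted p = 3.08e-04). These genes belong to families of near-identical copies, so the assignment of reads among copies is uncertain. With a pseudocount of 5 CPM none of the 11 was called, edgeR on recovered reads called 2, and without KO2 library 4 the count was 3. Libraries 1 and 2 alone gave 4 lower and libraries 3 and 4 alone gave 5.

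Imprinted genes, which are expressed from 1 parental allele, were called higher in 4 of 26 cases (15.4%) and lower in 5 (19.2%). Without KO2 library 4, KO3 library 3 or KO3 library 4, 2 were higher. With each chromosome centred, 1 was higher and 5 were lower. Within libraries 1 and 2 the list gave 1 higher and 4 lower, and within libraries 3 and 4 it gave 2 and 5. Those lower included neighbours of the Prader-Willi region. Magel2, which the maternal chromosome silences, had 1.74, 2.62, 1.93 and 3.39 CPM in KO3, against 15.6, 12.2, 21.7 and 10.4 CPM in KO2 (-2.20 ± 0.32, adjusted p = 1.68e-06). Ndn, next to it, had 9.58, 10.7, 7.93 and 6.1 CPM in KO3, against 26.9, 22.8, 28.2 and 21.8 CPM in KO2 (-1.45 ± 0.21, adjusted p = 6.16e-07). For both, WT was close to KO3, at 2.06 to 3.41 CPM for Magel2 and 9.91 to 13.5 CPM for Ndn. Usp29, from the Peg3 domain, was also lower (-1.24 ± 0.23, adjusted p = 8.07e-05).

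The largest falls were spread over chromosomes, with the deepest on the X. Xlr3c, an X-linked member of the Xlr family, had 1.74, 3.28, 9 and 4.07 CPM in KO3, against 61.8, 65.3, 89.9 and 109 CPM in KO2. The fall was 4.02 on the log2 scale (-4.02 ± 0.29, adjusted p = 2.59e-12), and WT, at 104 to 114 CPM, overlapped the highest KO2 library. Its near-identical relatives on the X may share its reads. Nlrp4c, an NLR gene of oocytes, had 4.57, 5.25, 3 and 0.903 CPM in KO3, against 37.7, 36.6, 50.1 and 48 CPM in KO2 (-3.44 ± 0.27, adjusted p = 1.35e-12). Tmsb15a, an X-linked thymosin that binds actin, had 1.09, 0.875, 1.93 and 0.452 CPM in KO3, against 14.8, 12.2, 12.3 and 24.3 CPM in KO2 (-3.01 ± 0.29, adjusted p = 8.34e-11). WT was at the KO3 level for Tmsb15a, at 0.426 to 1.05 CPM.

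Plac8, a cysteine-rich protein named for its placental expression, had 2.83, 3.94, 6.64 and 7.23 CPM in KO3, against 36.1, 27.1, 34 and 36 CPM in KO2 (-2.54 ± 0.28, adjusted p = 3.57e-09). Pla2g16, a phospholipase A2, had 12.8, 9.19, 8.57 and 12.4 CPM in KO3, against 73.3, 58.4, 67.5 and 87.8 CPM in KO2 (-2.63 ± 0.17, adjusted p = 2.39e-15). For both genes the lines did not overlap. Fam19a5, Ccdc172, Slc5a4b, Wdfy4 and the noncoding RNA 1700048O20Rik complete the 12 largest falls with Lgals3bp and Fgf8, with differences between -2.67 and -2.55. Rhox homeobox genes, an X-linked cluster, gave 2 of 8 lower (25%, median -0.46). These were Rhox2a (-2.14 ± 0.23, adjusted p = 2.04e-09), which has near-identical copies, and Rhox13 (-1.41 ± 0.23, adjusted p = 8.80e-06).

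Genes induced by interferon split in 2 directions. Interferons signal through a STAT2-containing complex that binds promoter elements with repeated GAAA. Of 18 tested genes of interferon response and antigen presentation, 3 were called higher (16.7%, against 8.19%) and 7 lower (38.9%, against 6.79%), with a median of -0.32. Of the 16 with a RefSeq promoter, 7 held GAAA, any 2 bases and again GAAA on either strand (43.8%), against 3.38% of the 11572 tested genes with a promoter. Of these 7, 2 were called lower, 2 higher and 3 neither. The 4 called ones are shown 5′ to 3′ on the gene's strand upstream of the start, with the motif or its reverse complement in capitals, overlapping matches run together, for Ifit1 (chr19:34640754-34640863, plus strand), Isg15 (chr4:156200825-156200934, minus strand), Stat2 (chr10:128270248-128270335, plus strand) and Bst2 (chr8:71537537-71537646, minus strand).
Ifit1: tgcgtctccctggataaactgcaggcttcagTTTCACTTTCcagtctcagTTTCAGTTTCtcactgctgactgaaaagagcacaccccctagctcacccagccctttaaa
Isg15: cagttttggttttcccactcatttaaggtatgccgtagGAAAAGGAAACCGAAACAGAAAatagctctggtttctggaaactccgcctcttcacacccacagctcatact
Stat2: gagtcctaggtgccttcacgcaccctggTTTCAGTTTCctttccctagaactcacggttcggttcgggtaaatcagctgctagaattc
Bst2: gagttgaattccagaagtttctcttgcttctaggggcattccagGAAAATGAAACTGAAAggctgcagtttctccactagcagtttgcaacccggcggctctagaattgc

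Among the transcription factors, Stat2 had 22.9, 29.5, 36.2 and 32.1 CPM in KO3, against 11.3, 9.43, 16.3 and 22.4 CPM in KO2 (1.03 ± 0.21, adjusted p = 3.10e-04). Its lines did not overlap, by a narrow gap at KO3 library 1 and KO2 library 4. Irf1, an interferon regulatory factor, had 90.3, 91.4, 106 and 123 CPM in KO3, against 157, 145, 178 and 223 CPM in KO2 (-0.76 ± 0.17, adjusted p = 6.02e-04). Stat2 and Irf1 thus moved in opposite directions.

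Among the induced genes, the antiviral protein Ifit1 had 0.435, 0.219, 0.428 and 0.678 CPM in KO3, against 4.27, 6.67, 8.85 and 4.91 CPM in KO2 (-2.28 ± 0.25, adjusted p = 3.19e-09). Isg15, a ubiquitin-like modifier, had 5.44, 2.84, 5.79 and 3.61 CPM in KO3, against 11.3, 14.9, 13.7 and 16.9 CPM in KO2 (-1.52 ± 0.28, adjusted p = 4.98e-05). Psmb8, a subunit of the immunoproteasome, had 6.09, 7, 6.21 and 6.1 CPM in KO3, against 33.6, 39.1, 27.7 and 32.2 CPM in KO2 (-2.21 ± 0.26, adjusted p = 1.01e-08). WT stood lower than both lines for Isg15 and Psmb8, at 0.175 to 0.935 CPM and at 0.7 to 3.3 CPM. Rtp4, a chaperone of receptor transport, was lower in KO3 (-1.66 ± 0.23, adjusted p = 4.03e-07), and the tethering factor Bst2 on chromosome 8 was higher (0.82 ± 0.24, adjusted p = 0.00962), a call lost with each chromosome centred (adjusted p = 0.145). Lgals3bp, a secreted galectin-binding glycoprotein outside the list, had 0.653, 2.41, 3.21 and 0.452 CPM in KO3, against 31.4, 26.4, 22.6 and 20.7 CPM in KO2 (-3.42 ± 0.28, adjusted p = 2.59e-12). Within libraries 1 and 2 the list gave 2 higher and 6 lower, and within libraries 3 and 4 none higher and 6 lower.

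**Figure D3:**
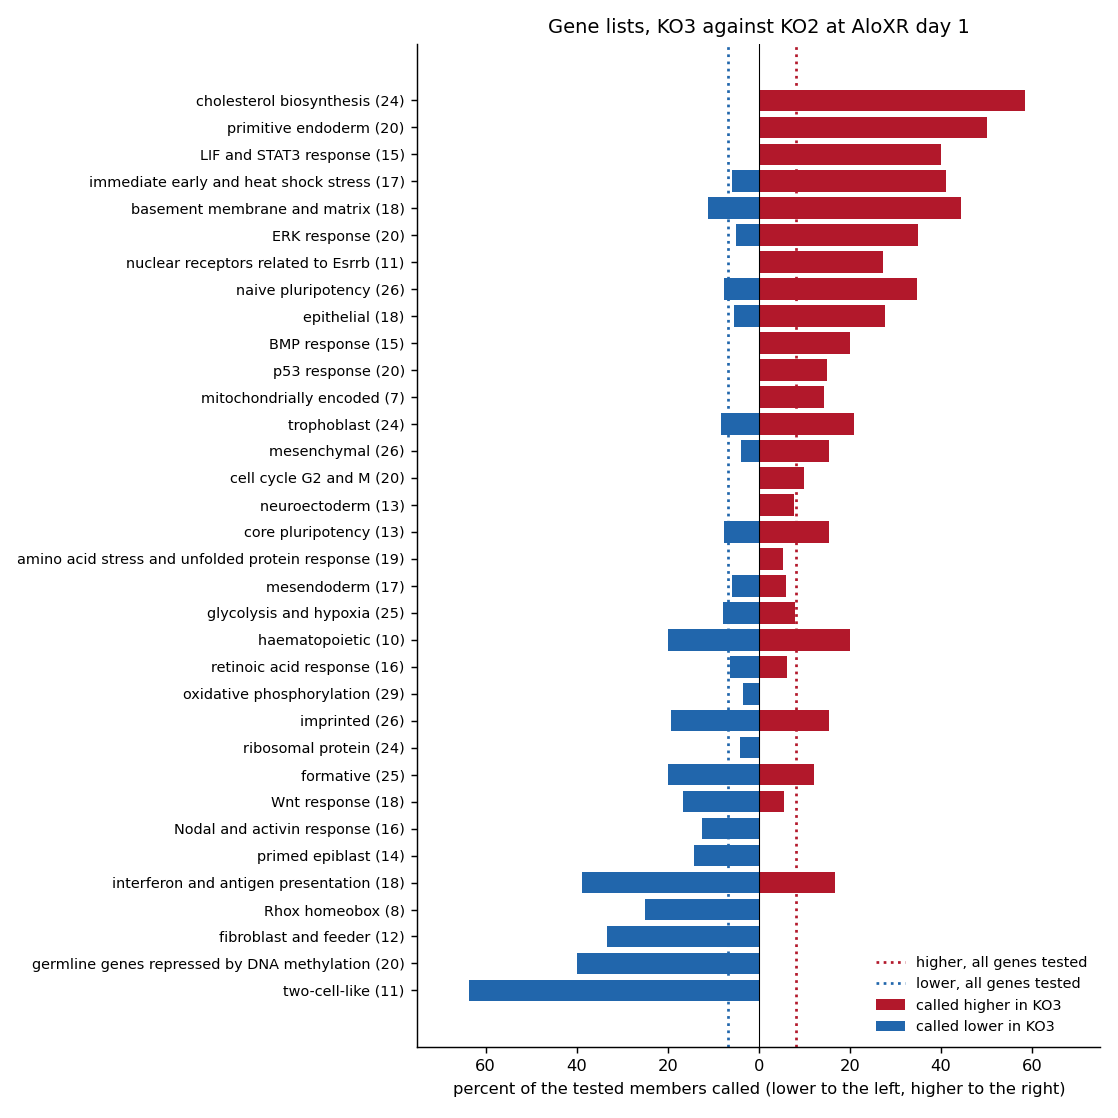
Percent of the tested members of each gene list called higher (to the right, red) or lower (to the left, blue) in KO3 at AloXR day 1, with the number tested in brackets and the percent over all genes tested, 8.19% and 6.79%, as dotted lines. Cholesterol biosynthesis stands at one end with 58.3% higher and the two-cell-like list at the other with 63.6% lower.

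Other genes among the largest rises came from adhesion, neurons and growth factors. Cdh3, P-cadherin, had 50.1, 48.8, 26.8 and 32.5 CPM in KO3, against 5.02, 7.13, 8.62 and 4.91 CPM in KO2 (2.43 ± 0.30, adjusted p = 9.61e-08). Vegfc, a lymphangiogenic growth factor, had 22.9, 22.7, 13.1 and 12.4 CPM in KO3, against 2.01, 4.14, 1.63 and 2.45 CPM in KO2 (2.39 ± 0.29, adjusted p = 3.61e-08). Kbtbd11 had 49, 56.9, 41.8 and 37.9 CPM in KO3, against 7.78, 7.13, 10.7 and 8.72 CPM in KO2 (2.30 ± 0.20, adjusted p = 1.42e-11). These 3 genes lie on chromosome 8. Nefl, the neurofilament light chain on chromosome 14, had 99.5, 94.5, 69.4 and 65.3 CPM in KO3, against 13.1, 17.7, 13.7 and 13.1 CPM in KO2 (2.42 ± 0.23, adjusted p = 1.17e-09). Enox1, also on chromosome 14, rose by 2.61 ± 0.31 (adjusted p = 2.10e-08) and reached 17.4 to 28.7 CPM in KO3, against 1.91 to 4.14 CPM in KO2, close to WT at 25.8 to 30.9 CPM. The small noncoding RNAs mt-Tm, Snora41 and Snord13 were among the 12 as well, with 2.26 to 2.32. Such RNAs are short or lie within other genes, and how tags of overlapping genes were split is not given in the sources used here.

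Epithelial genes gave 5 of 18 higher (27.8%) and 1 lower (5.56%), including the junction protein genes Ocln (1.01 ± 0.24, adjusted p = 0.00154), Jup (0.95 ± 0.15, adjusted p = 2.96e-06) and Dsp (1.03 ± 0.30, adjusted p = 0.00987). Within libraries 1 and 2 the epithelial count was 1 higher and within libraries 3 and 4 it was 2. Ocln and Dsp were not called within libraries 1 and 2 (adjusted p = 0.205 and 0.153). Dsp was not called within libraries 3 and 4 either (adjusted p = 0.12). Mesenchymal genes gave 4 of 26 higher (15.4%) and 1 lower (3.85%). Among them the actin-binding Tagln2 had 222, 231, 217 and 229 CPM in KO3, against 111, 108, 96.2 and 91.1 CPM in KO2 (1.14 ± 0.14, adjusted p = 5.33e-08). Cald1, caldesmon, was higher by 0.98 ± 0.12 (adjusted p = 1.68e-08). Fibroblast and feeder markers went the other way, with 4 of 12 lower (33.3%), among them Thy1 (-1.49 ± 0.25, adjusted p = 1.23e-05) and Col1a1 (-1.14 ± 0.32, adjusted p = 0.00757). The fibroblast list gave 3 lower within libraries 1 and 2, 1 within libraries 3 and 4 and 2 with a pseudocount of 5 CPM. Col1a1 was not called within libraries 3 and 4 (adjusted p = 0.455). The summed level of these markers over 14 genes, none at 0 in all 8 libraries, was 29.1 to 45.3 CPM in KO3. It was 52.3 to 66.5 CPM in KO2 and 25 to 35.9 CPM in WT. Haematopoietic markers gave 2 of 10 in each direction (20%) and summed, over 14 genes with Hbb-bh1 at 0, to 57.6 to 77.2 CPM in KO3, 36.3 to 48.1 CPM in KO2 and 52.7 to 68.9 CPM in WT. Without KO2 library 1 or 2 the haematopoietic list gave 1 in each direction, and without KO3 library 2, 3 or 4 it gave 1 higher. The part of other cell types in the results was not tested.

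Housekeeping groups gave few calls. Of 29 oxidative phosphorylation genes, 1 was called lower (3.45%), Cyc1, cytochrome c1 (-0.70 ± 0.10, adjusted p = 1.57e-06). Ribosomal protein genes gave 1 lower of 24 (4.17%), and the amino acid stress list gave 1 higher of 19 (5.26%). Glycolysis and hypoxia genes gave 2 of 25 in each direction (8%), with none higher without KO2 library 4, 1 higher without KO3 library 4 and 1 lower without KO3 library 1 or 2. Of these, the glucose transporter Slc2a1 had 103, 110, 144 and 144 CPM in KO3, against 277, 257, 290 and 270 CPM in KO2 (-1.14 ± 0.25, adjusted p = 9.07e-04). Cell cycle genes of G2 and M gave 2 of 20 higher (10%), one being the spindle gene Nusap1 (0.73 ± 0.12, adjusted p = 1.14e-05). The p53 list gave 3 of 20 higher (15%), among them the death receptor gene Tnfrsf10b (0.98 ± 0.21, adjusted p = 5.01e-04) and the antiproliferative gene Btg2 (0.83 ± 0.15, adjusted p = 2.83e-05). Mesendoderm genes gave 1 of 17 in each direction (5.88%) and neuroectoderm genes 1 higher of 13 (7.69%), all near the shares over all genes. These small counts moved with single libraries. The neuroectoderm call was lost without any 1 of KO2 libraries 1 to 4 or KO3 libraries 1 and 4, the amino acid stress call without KO2 library 4 or KO3 library 1, the lower mesendoderm call without KO2 library 1 or 2 and the ribosomal call without KO2 library 1 or 2 or KO3 library 3. Without KO2 library 4 or KO3 library 1 or 2, the cell cycle list gave 1 higher. The mitochondrially encoded mt-Nd5 was 1 of 7 called higher (14.3%), at 0.77 ± 0.14 (adjusted p = 6.65e-05), a call lost with each chromosome centred (adjusted p = 0.137).

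Whole chromosomes differed between the lines. On chromosome 8, 204 of 902 tested genes were called higher (22.6%) and 27 lower (2.99%). The median difference of its 505 genes with at least 10 CPM in either line was 0.40, and 90.5% of them lay above 0. On chromosome 6, 138 of 868 genes were called higher (15.9%), and 407 genes had a median of 0.33. Chromosomes 4, 13, 2 and 1 had medians of 0.22, 0.21, 0.21 and 0.18, and the other autosomes -0.11 to 0.06. The X chromosome had a median of -0.15 and 99 of 630 genes lower (15.7%).

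Chromosome 8 took 5.14% to 5.34% of reads in KO3, 4.03% to 4.22% in KO2 and 4.21% to 4.53% in WT. Chromosome 6 took 5.09% to 5.26% in KO3, 4.05% to 4.46% in KO2 and 4.18% to 4.34% in WT. Neither share overlapped between KO3 and the other lines. In 2iL and at days 3 and 5 of AloXR the median of the same chromosome 8 genes was 0.35, 0.37 and 0.38, and that of the chromosome 6 genes 0.16, 0.36 and 0.23. With each gene's difference centred on the median of its chromosome, 1105 genes were called higher and 1086 lower. Copy number was not measured here.

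**Figure D4:**
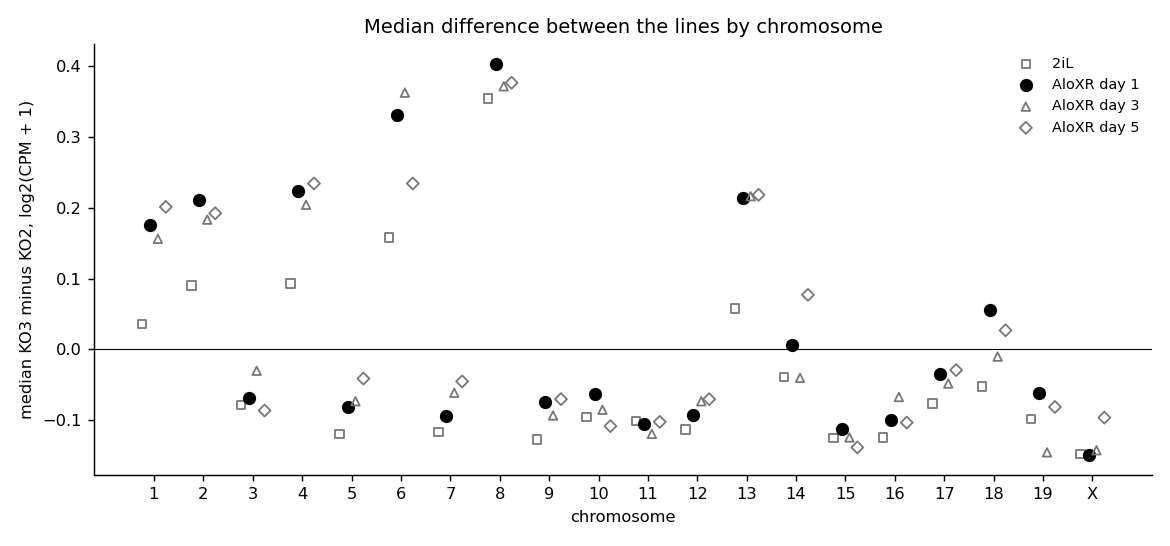
Median difference between KO3 and KO2 (y axis, log2(CPM + 1) scale) over genes with at least 10 CPM in either line at AloXR day 1, for each chromosome (x axis), in 2iL (squares), at AloXR day 1 (filled circles), day 3 (triangles) and day 5 (diamonds). Chromosome 8 stands at 0.35 to 0.40 at each time and the X chromosome at -0.15 to -0.10.

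Part of the difference between the lines was present before AloXR and after it. In 2iL, 424 genes were called higher in KO3 (2.5%) and 804 lower (4.74%), at day 3 946 (5.58%) and 358 (2.11%), and at day 5 1531 (9.02%) and 858 (5.06%). Day 3 and day 5 rest on 2 KO3 libraries each. These comparisons use other libraries of the same lines. Of the 1390 genes called higher at day 1, 200 were also called higher in 2iL, which is 14.4% of the day 1 list and 47.2% of the 2iL list. With day 3 the shared genes were 439, or 31.6% of the day 1 list and 46.4% of the day 3 list, and with day 5 they were 510, or 36.7% and 33.3%. Of the 1152 called lower, 322 were shared with 2iL (28% and 40%), 200 with day 3 (17.4% and 55.9%) and 305 with day 5 (26.5% and 35.5%). In all 4 comparisons 80 genes were called higher and 50 lower. Xlr3c, Nlrp4c and Plac8 were among the lower, with Xlr3c at -3.04 in 2iL, -3.92 at day 3 and -4.17 at day 5.

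The difference at day 1 was itself tested against the difference at each other time. It differed from 2iL for 600 genes (3.54%), from day 3 for 126 (0.743%) and from day 5 for 524 (3.09%). In 2iL, library 3 of each line stood apart, with Dnmt3b at 116 CPM in KO3, 107 CPM in KO2 and 121 CPM in WT, with 39.7 to 59.9 CPM in libraries 1 and 2. Without these 3 libraries, 998 genes differed from 2iL, and of the named genes Cdh3, Fgf8 and Hdc no longer did (adjusted p = 0.117, 0.17 and 0.166). Esrrb was one of 13 genes called at day 1 whose difference passed the test against each of the other times in the direction of the call, 5 with a day 1 difference above the others and 8 with one below. For Esrrb it was 3.06 at day 1, 1.26 ± 0.31 in 2iL, 1.18 ± 0.33 at day 3 and 0.27 ± 0.33 at day 5, and the tests of day 1 against these times gave adjusted p of 0.0079, 0.0157 and 4.45e-05.

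The other genes above were Kbtbd11, Lpar6, Rai14 and Stmn2. Kbtbd11 and Lpar6, a lysophosphatidic acid receptor, had 2.30 and 1.86 at day 1 and at most 0.96 and 0.83 at other times. Rai14, which binds actin, had 1.2 at day 1 and 0.20 to 0.25 elsewhere. Stmn2, a microtubule regulator of neurons, had 103, 114, 152 and 162 CPM in KO3, against 41.2, 41.8, 58.7 and 62.4 CPM in KO2 at day 1 (1.36 ± 0.14, adjusted p = 1.09e-09), and its difference was -0.29 in 2iL, -0.47 at day 3 and -0.74 at day 5. In the other 8 the day 1 difference was below that at each other time. Gjd2, a neuronal connexin, had 0.653, 0.437, 0.428 and 0.678 CPM in KO3, against 7.53, 4.37, 6.75 and 6.82 CPM in KO2 (-2.23 ± 0.26, adjusted p = 1.32e-08), and 0.00 to 0.22 at other times. Cited1, a CBP/p300 partner on the X chromosome, had 4.35, 1.09, 2.79 and 4.74 CPM in KO3, against 11, 11, 15.1 and 14.7 CPM in KO2 (-1.81 ± 0.25, adjusted p = 4.07e-07), and -0.08 to 0.49 at other times. Gcnt1, a glycosyltransferase, had -1.09 at day 1 and -0.11 to 0.11 elsewhere. Lgals3bp, Tcl1, Trem2 and the 5S RNA n-R5s92 were of the same kind. Hdc, which makes histamine, was low throughout, at 0.327 CPM in KO3 and 1.69 CPM in KO2 at day 1 (means), and its difference changed sign, with 0.10 in 2iL, -0.99 at day 1, 1.30 at day 3 and 1.00 at day 5.

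The gene groups gave different counts over time, while the shares over all genes moved too. Of all genes tested, 2.5% were called higher in 2iL, 8.19% at day 1, 5.58% at day 3 and 9.02% at day 5. The shares called lower were 4.74%, 6.79%, 2.11% and 5.06%. Of the 24 sterol genes, 5 were called higher in 2iL, 14 at day 1, none at day 3 and 19 at day 5, with medians of 0.24, 0.69, 0.18 and 0.92. The difference at day 1 exceeded that in 2iL for 5 of them and that at day 3 for 3, and was below that at day 5 for 4. Mvd had 0.67 in 2iL, 2.30 at day 1, 0.59 at day 3 and 1.79 at day 5, and day 1 exceeded 2iL (adjusted p = 5.67e-04) and day 3 (adjusted p = 9.45e-04). Hsd17b7 exceeded 2iL (adjusted p = 0.0025). Without the 2iL libraries 3, the 2iL count was 4, and Mvd and Hsd17b7 still exceeded 2iL (adjusted p = 0.00421 and 0.00369), as did Esrrb (adjusted p = 0.00837). Hmgcs1, not called at day 1, was higher in KO3 by 1.67 at day 5, and that difference exceeded the one at day 1 (adjusted p = 3.25e-08).

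Of the 20 primitive endoderm genes, 2 were called higher in KO3 in 2iL, 10 at day 1, 9 at day 3 and 16 at day 5. In 2iL 1 was called lower, and none at the other times. No member's difference at day 1 differed from that at day 3 by the test. The difference was larger at day 5 than at day 1 for 6 of them. The difference for Lama1 was -0.03 in 2iL, 2.26 at day 1, 3.66 at day 3 and 4.08 at day 5, and that for Col4a1 was 0.08, 1.37, 2.08 and 2.76. Both exceeded 2iL at day 1 (adjusted p = 0.00175 and 0.00159) and were exceeded at day 5 (adjusted p = 0.022 and 9.39e-04). Naive genes were called higher in 2 of 26 cases in 2iL, 9 at day 1, 12 at day 3 and 4 at day 5. They were called lower in 2 cases in 2iL, 2 at day 1 and none at days 3 and 5. Without the 2iL libraries 3, the naive genes called lower in 2iL were 5 in place of 2. Klf5 exceeded both 2iL (adjusted p = 0.00412) and day 5 (adjusted p = 0.0217). Klf2, lower in KO3 at day 1, was higher at day 3 by 1.01, and the test of day 1 against day 3 gave -2.01 with an adjusted p of 9.11e-04.

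Germline genes were lower in KO3 in 5 of 20 cases in 2iL and 8 at day 1, whereas at day 3 there were 5 higher and 1 lower, and at day 5 6 higher and 1 lower. The day 1 difference was below that at day 3 for 3 of them and below that at day 5 for 6. Sycp1 had -2.38 in 2iL, -1.44 at day 1, 0.31 at day 3 and 0.75 at day 5, and day 1 differed from day 3 (adjusted p = 0.0189) and from day 5 (adjusted p = 8.29e-04). Sycp3 did not follow Sycp1, with -0.01 in 2iL, -1.06 at day 1, -1.96 at day 3 and -2.12 at day 5. Two-cell-like genes were lower in 9 of 11 cases in 2iL and 7 at day 1, and at day 3 4 were higher and none lower, with the day 1 difference below that at day 3 for 5. Interferon genes were lower in 5 of 18 cases in 2iL, 7 at day 1, 3 at day 3 and 5 at day 5. They were higher in 1 case in 2iL, 3 at day 1, 2 at day 3 and none at day 5. Ifit1 had -0.47 in 2iL, -2.28 at day 1, -0.84 at day 3 and -0.96 at day 5, and day 1 differed from 2iL (adjusted p = 0.00365, or 0.00819 without the 2iL libraries 3).

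**Figure D5:**
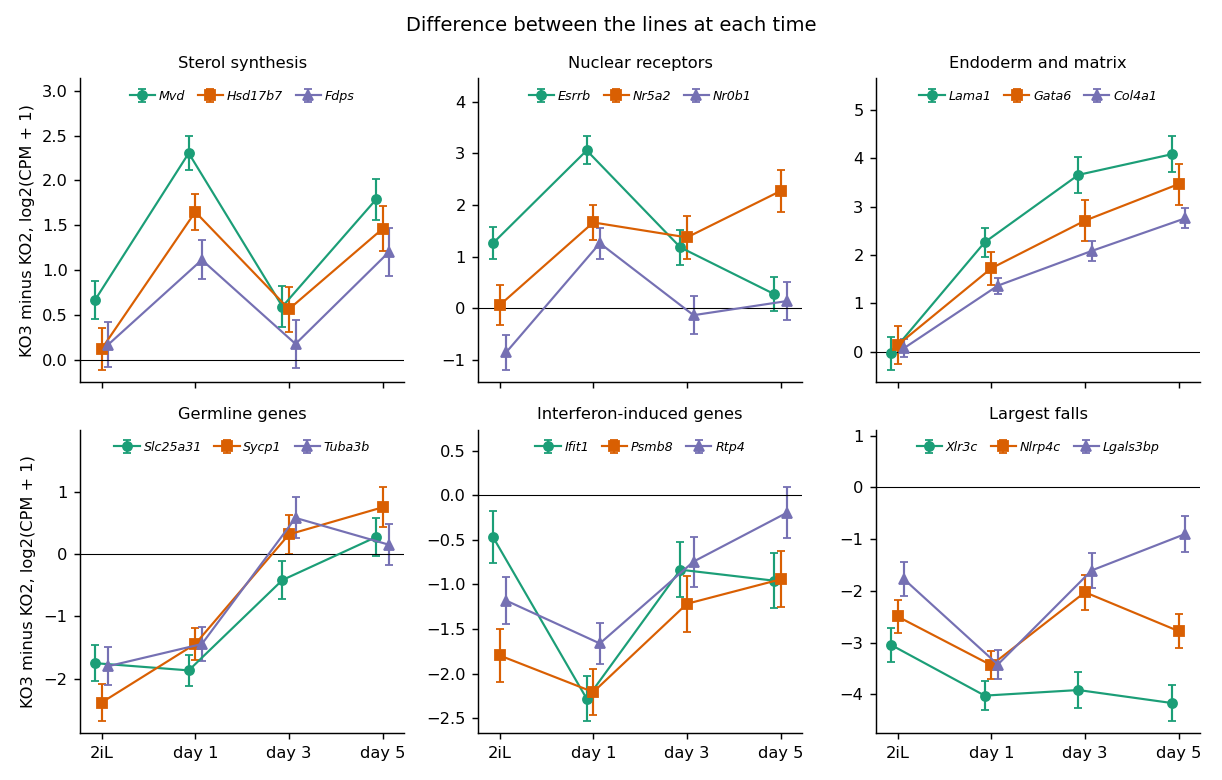
Difference between KO3 and KO2 (y axis, log2(CPM + 1) scale, bars are the standard error of the fit) for 18 genes in 6 groups in 2iL and at AloXR days 1, 3 and 5 (x axis). Mvd stands at 2.30 at day 1 and 0.59 at day 3, Lama1 stands at 4.08 at day 5, and Sycp1 lies below 0 in 2iL and at day 1 and above 0 at days 3 and 5.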

How the data were processed

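Cells of 3 lines were profiled by QuantSeq 3′ mRNA sequencing. Per the submitters' processing notes, STAR 2.7.6a, Subread and featureCounts 2.0.1 were used with GRCm38. The deposited values are CPM per gene, scaled by the authors to the assigned reads of each library, and the strand setting of the counting is not given in the sources used here. Whole reads were recovered from the CPM for 100% of 766190 values above 0 (within 0.01 reads). Names and positions came from GENCODE M21.

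Values were fitted as log2(CPM + 1) with limma 3.58.1 in R 4.3.3, over all 41 libraries with 1 mean per group (29 residual degrees of freedom, trend and robust variances), for the 16967 of 55487 genes that reached 1 CPM in 3 or more libraries. A fold change on this scale understates the change of low genes. The fit was tested on simulated data. Alternatives were other pseudocounts, filters and scalings, edgeR 4.0.16 and DESeq2 1.42.0 on the recovered reads, chromosome centring and leaving out libraries. The lines and the 34 gene lists were chosen with earlier results of these data known. Named genes are Esrrb and its relatives, the 12 largest rises and falls among called genes with at least 5 CPM in either line, up to 3 called members per list and 8 reference genes. Another 24 were chosen after their values were seen. Promoters came from RefSeq. WT values are given as levels only. Some named genes are not reported here.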

Additional observations from a re-analysis of the deposited data

Results flagged for a closer look

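The difference between KO3 and KO2 at AloXR day 1 was tested against the difference at each other time (interaction term in limma, Benjamini-Hochberg adjustment over all genes tested), and the named genes that passed are given with the day 1 difference minus the other one, on the log2(CPM + 1) scale. The comparisons with other times share the day 1 libraries. No explanation was tested for any of these values.

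The KO3 minus KO2 difference at day 1 lay above that in 2iL for Vcan (2.87), Gbx2 (2.74), Notum (2.47), Nefl (2.35), Lama1 (2.30), Nr0b1 (2.12), T (2.03), Ndrg1 (2.01) and Esrrb (1.80). It lay above that in 2iL for Fosl1 (1.68), Stmn2 (1.65), Mvd (1.64), Cdh3 (1.62), Enox1 (1.60), Kbtbd11 (1.56), Id4 (1.54), Hsd17b7 (1.53) and Hspg2 (1.48). The difference also lay above that in 2iL for Col4a1 (1.29), Lef1 (1.26), Pdk1 (1.2), Lpar6 (1.08), Klf5 (1.06) and Rai14 (0.97). The KO3 minus KO2 difference at day 1 lay below that in 2iL for Car14 (-2.24), Gjd2 (-2.23), Cited1 (-2.17), Fgf8 (-1.85), Ifit1 (-1.81), Lgals3bp (-1.65), Otx2 (-1.51), Trem2 (-1.49) and n-R5s92 (-1.40). It lay below that in 2iL for Ccdc172 (-1.39), Tcl1 (-1.39), Pla2g16 (-1.21), Gcnt1 (-1.2) and Hdc (-1.09). The adjusted p of these genes ranged between 2.16e-07 and 0.0494.

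The KO3 minus KO2 difference at day 1 lay above that at day 3 for Esrrb (1.88), Stmn2 (1.83), Mvd (1.71), Kbtbd11 (1.51), Lpar6 (1.25) and Rai14 (1). The KO3 minus KO2 difference at day 1 lay below that at day 3 for Gjd2 (-2.44), Hdc (-2.29), Slc5a4b (-2.25), Usp17lc (-2.14), Tuba3b (-2.02), Klf2 (-2.01), Tcl1 (-1.98), Zscan4a (-1.91) and Lgals3bp (-1.82). It lay below that at day 3 for Sycp1 (-1.75), Cited1 (-1.73), Fam19a5 (-1.70), Wdfy4 (-1.57), Trem2 (-1.45), n-R5s92 (-1.44) and Gcnt1 (-1.06). The adjusted p of these genes ranged between 9.01e-07 and 0.0306.

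The KO3 minus KO2 difference at day 1 lay above that at day 5 for Esrrb (2.78), Vegfc (2.30), Stmn2 (2.11), Lgals1 (1.48), Bst2 (1.45), Kbtbd11 (1.35), Tagln2 (1.08), Lpar6 (1.03) and Rai14 (0.95). It lay above that at day 5 for Klf5 (0.91). The KO3 minus KO2 difference at day 1 lay below that at day 5 for Lgals3bp (-2.52), Ccdc172 (-2.52), Gjd2 (-2.45), Magel2 (-2.38), Cited1 (-2.30), Wdfy4 (-2.20), Sycp1 (-2.19), Slc5a4b (-2.14) and Slc25a31 (-2.14). It lay below that at day 5 for Fgf8 (-2.02), Sox17 (-1.99), Hmgcs1 (-1.99), Hdc (-1.99), Rhox2a (-1.90), Trem2 (-1.87), Lama1 (-1.82), Cryab (-1.75) and n-R5s92 (-1.75). The difference also lay below that at day 5 for Fam19a5 (-1.68), Tcl1 (-1.60), Tuba3b (-1.59), Pim2 (-1.55), Rtp4 (-1.47), Col4a1 (-1.39), Lef1 (-1.34), Zscan4a (-1.12) and Car14 (-1.03). It lay below that at day 5 for Gcnt1 (-0.98). The adjusted p of these genes ranged between 2.82e-08 and 0.0389.

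Some libraries stood apart from the other 3 of their line. Their gap, as a share of the range of the 4, was larger than Dixon's limit for 4 samples. Such a gap can be small in CPM, as for Pou3f1, with 367.82 to 367.89 CPM in the other 3 KO3 libraries. Chance alone flags about 1 in 20 groups. In KO3, Otx2 was high in library 1 at 191.31 CPM, Pou3f1 in library 2 at 375.76 CPM and Psmb8 in library 2 at 7 CPM. Pdk1 was low in KO3 library 1 at 47.88 CPM and Id4 in KO3 library 4 at 2.48 CPM. Near the detection limit, Wdfy4 stood at 0 CPM in KO3 library 2, and KO3 library 3 was the one KO3 library with reads of T, at 0.21 CPM, and of Prame, at 0.64 CPM. In KO2, Nefl was high in library 2 at 17.7 CPM, Hspg2 in library 3 at 12.81 CPM and Prame in library 4 at 2.45 CPM. Library 1 of KO2 was low for Ccdc172 at 4.52 CPM, for Jund at 13.81 CPM and for Sox1 at 1 CPM, and library 4 of KO2 was low for Tfcp2l1 at 3.82 CPM.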

How the results depend on the processing

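Of 2542 genes called between KO3 and KO2 at AloXR day 1, a pseudocount of 5 CPM left 1231 (774 higher and 457 lower), libraries 1 and 2 of each line alone left 1366 (736 and 630), and libraries 3 and 4 alone left 1567 (872 and 695). Leaving out 1 library at a time gave 1154 to 1390 genes higher and 970 to 1130 lower. The split of higher and lower calls was 1283 and 1278 under quantile normalization, 1210 and 1089 with edgeR, 1137 and 1142 with DESeq2 and 1105 and 1086 with each chromosome centred. The count of genes whose difference differed from that in 2iL was 373 with no filter beyond 1 read, 227 with only the libraries of the comparison, 258 in libraries 1 and 2, 232 in libraries 3 and 4 and 998 with 2iL libraries 1 and 2 only. For day 3 it was 61 at 5 CPM or more in 4 libraries, 43 with edgeR, 82 with DESeq2, 67 in libraries 1 and 2, 75 in libraries 3 and 4 and 211 with 2iL libraries 1 and 2 only. For day 5 it was 257 with edgeR, 242 in libraries 1 and 2 and 202 in libraries 3 and 4. The cause of these shifts was not tested. Esrrb stayed called in each setting run. Among the 128 other named genes, none of those called changed direction. For genes not called, a change of sign was not counted. The filter of 5 CPM in 4 libraries tested 117 of the 128. Of these 128, 18 lost their call with a pseudocount of 5 CPM, 36 in libraries 1 and 2, 30 in libraries 3 and 4 and at most 14 on leaving out 1 library. The settings with libraries 1 and 2, libraries 3 and 4, and 2iL libraries 1 and 2 were chosen after the data were seen. At this depth, genes under about 0.643 to 0.818 CPM rest on 3 reads or fewer. No paired analysis was possible because the labels carry no replicate numbers, and those used here were given in accession order.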
